A study of Mus musculus with 18 samples.

Results

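The genes described here are 42 members of the oxidant and electrophile defence of the mouse urinary bladder. They are the transcription factor Nrf2 (gene Nfe2l2), its sensor Keap1, known Nrf2 targets, and the enzymes and carriers that make, recycle and use glutathione. Members were picked by gene symbol, and all 42 were found among the 46333 named genes of the deposited count table. All 42 also passed edgeR's filter on low counts, which left 19323 genes tested.

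RNA was sequenced from whole bladders of wild type female BALBc mice, 8 weeks old, in 18 libraries that form 6 groups of 3 mice. Saline mice were taken 1 day after injection, on a normal diet (group 1) or on a vitamin A-enriched diet (group 2). Cyclophosphamide mice had received 150 mg/kg by intraperitoneal injection and were taken at 1 day on the normal (group 3) or enriched diet (group 4), or at 3 days on the normal (group 5) or enriched diet (group 6). The enriched diet held 566081 UI of retinyl-acetate per kg by the sample labels, whereas the series' design text names retinyl palmitate, and it was fed from 1 week before injection. No saline mice were taken at 3 days, so treatment and day cannot be told apart where 3 days are set against saline. Mice were housed by 3 to a cage, and the cage of each mouse is not given, so cage and group cannot be told apart. Log2 changes are from edgeR's quasi-likelihood fit with Benjamini-Hochberg adjusted p-values over all genes tested, and "rose" or "fell" is used of members with an adjusted p under 0.05.

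Cyclophosphamide is an alkylating prodrug whose metabolite acrolein reaches the urine and attacks the urothelium, the lining epithelium of the organ. Acrolein is an electrophile that is bound by glutathione, a tripeptide with a reactive thiol. In resting cells Keap1 holds Nrf2 in the cytoplasm for breakdown. When electrophiles modify cysteines of Keap1, Nrf2 escapes, enters the nucleus and binds antioxidant response elements near its target genes together with small Maf proteins. Its activity is set largely at the protein level, which these data do not measure.

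At 1 day after cyclophosphamide 21 members were higher than in saline on the normal diet, where 7.26% of all tested genes were, and 1 was lower (4.49%). On the vitamin A diet 12 were higher (10.2% of all tested genes) and 7 lower (9.05%). The direct test of a difference in response between diets, the interaction, passed for 0 of 42 members in edgeR and 3 in DESeq2. Of all genes 0 and 116 passed in them. The cystine carrier Slc7a11, the glutathione peroxidase Gpx2, haem oxygenase Hmox1, thioredoxin reductase Txnrd1 and the transferase Gsta1 rose on both diets. The quinone reductase Nqo1, the UDP-glucose dehydrogenase Ugdh and the transferases Gsta2, Gsta3 and Mgst2 were lower on the vitamin A diet than on the normal diet at 1 day, where 0.228% of all tested genes were lower. Each of these 5 calls was lost when some single library was left out. Nfe2l2 and Keap1 passed the threshold in none of the 11 contrasts. By 3 days 6 members on the normal diet (10% of all genes) and 3 on the vitamin A diet (5.98%) were past the threshold against saline, with Gpx2, Gpx3 and Hmox1 higher on both.

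Depth was 19554132 to 34598952 counts per library, and the members took 1.35% to 2.24% of them. Levels are counts per 1000000 counts of named genes (CPM), listed in the order of replicates 1, 2 and 3, and mean values carry the SD over 3 mice. Replicate 2 of the vitamin A diet at 3 days stood apart, with 14.24% of its counts on genes shorter than 1 kb, the highest share of the 18 libraries. Its correlation with the other mice of its group was the lowest found, at 0.9478. All cyclophosphamide libraries of the vitamin A diet were low in this, at 0.9478 to 0.9562, against 0.969 to 0.9742 on the normal diet. Replicate 3 of the vitamin A diet at 1 day had the highest mitochondrial share (3.822%). Sums over 6 umbrella cell markers (among them uroplakins and Krt20) lay between 2406 and 7651 CPM and no marker of that list was at 0, so each library held the urothelium that the tissue label implies. Because bladders were whole, fewer cells of a type and less RNA per cell cannot be told apart.

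To compare members with each other, levels per gene length were taken from the authors' FPKM values in saline mice on the normal diet. Gstm1, a mu class transferase, had the highest level at 4093 ± 92.2 FPKM. The ferritin light chain Ftl1 (2646 ± 155 FPKM) and the alpha class transferase Gsta4 (1213 ± 95.4 FPKM) followed. Within the alpha class, Gsta3 had 35.3 ± 1.02 FPKM, Gsta2 22.5 ± 0.65 FPKM and Gsta1 1.73 ± 0.74 FPKM. Slc7a11 was lowest of the 42 at 1.23 ± 0.31 FPKM, and Nfe2l2 (72.0 ± 6.16 FPKM) stood at the 20th place. Some copies share sequence. Of windows of 75 bases in the member's transcript (GENCODE M21), another gene also held 86.3% for Gsta1, 69.9% for Ftl1, 57.7% for Gstp1, 55.3% for Gpx4 and 46.9% for Gsta2, and values of these 5 are uncertain. Gm3776, Gm10639 and each other were the partners of Gsta1 and Gsta2, and Gstp2 was that of Gstp1. Gstm1 shared 14.8% with Gstm3 and with pseudogenes. Sod1 overlaps Scaf4 and G6pdx overlaps Ikbkg on the opposite strand, and no source used here says whether counting was stranded.

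The first comparison asked what cyclophosphamide did within 1 day on each diet. On the normal diet 22 of 42 members passed the threshold, where 11.8% of all tested genes did, with 21 higher (7.26% of all genes) and 1 lower (4.49%). The median log2 change was 0.58 over the members and 0.00 over all tested genes. In 29 members all 3 treated mice lay above all 3 saline mice, where 20.8% of all genes did so. A total of 19 members passed on the vitamin A diet, where 19.3% of all genes did, with 12 higher (10.2%) and 7 lower (9.05%), and the median was 0.17 against -0.01 over all genes. There 19 members lay above saline without overlap (20.9% of all genes) and 8 below (17.4%). The 2 comparisons have separate saline groups and separate treated groups, whereas the later comparisons reuse the same 1-day and saline mice.

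Marker levels of several cell types shifted beside these counts. Of 14 marker lists, 5 had higher and 6 lower sums than saline without overlap at 1 day on the normal diet, and 4 had higher and 5 lower sums on the vitamin A diet. Of single genes 20.8% lay higher and 18.3% lower without overlap on the normal diet, and 20.9% and 17.4% on the vitamin A diet. The lists are not separate, as the mesothelium list shares Krt19 with the epithelial and Upk3b with the umbrella cell list. Neutrophil sums, counted as higher, were only 5.16 to 31.8 CPM at 1 day. Some lists counted as lower were low too. Hepatocyte sums were 2.09 to 13.3 CPM at 1 day on the normal and 0.75 to 6.06 CPM on the vitamin A diet. Lymphocyte sums, counted as lower on the vitamin A diet only, were 1.84 to 4.22 CPM there. General epithelial markers (6 genes) summed to 5036 to 5387 CPM in saline and 7643 to 8986 CPM at 1 day on the normal diet, and to 4900 to 5004 and 6673 to 12310 CPM on the vitamin A diet. Smooth muscle markers (6 genes) summed to 22350 to 28030 CPM in saline and 10940 to 18500 CPM at 1 day on the normal diet, and to 19530 to 27990 and 11060 to 20810 CPM, with overlap, on the vitamin A diet. No marker of either list was at 0, and their part in the members' changes was not tested.

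**Figure D1:**
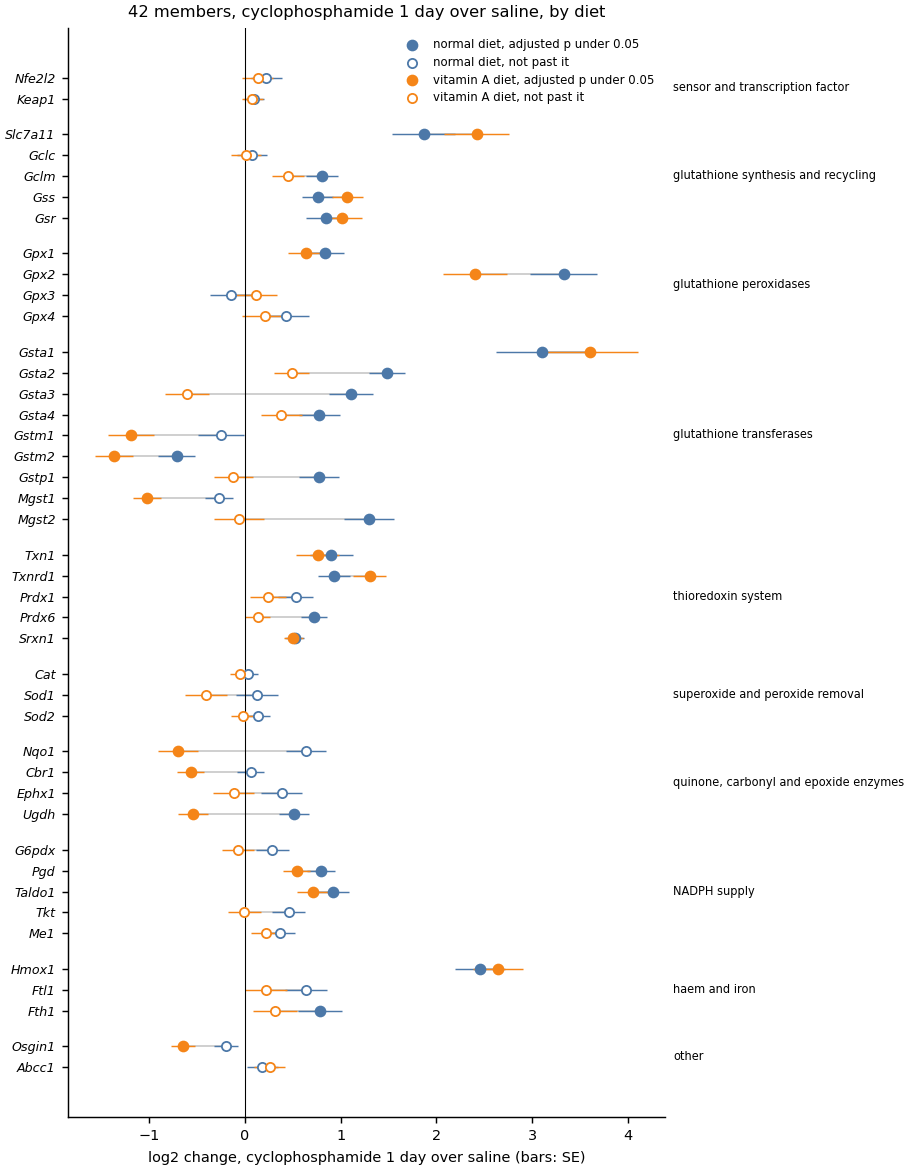
Log2 change of the 42 members from saline to 1 day after cyclophosphamide, with the standard error, on the normal diet (blue) and the vitamin A diet (orange); filled points have an adjusted p under 0.05 and rows follow the members' roles. Gsta1, Gpx2, Hmox1 and Slc7a11 lie at 1.87 to 3.61 on both diets. Nqo1, Ugdh, Gsta3 and Mgst2 are among the members to the right of 0 on the normal diet and to the left of it on the vitamin A diet. Of these only Ugdh passed on both diets, and the interaction of diet with cyclophosphamide passed for no member in edgeR.

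Neither the sensor nor the factor passed the threshold at the messenger RNA level. Nfe2l2 (chromosome 2, 75505857 to 75535007, minus strand; coordinates in GRCm39 throughout unless stated) had 302, 258 and 268 CPM in saline mice on the normal diet and 289, 296 and 309.6 CPM on the vitamin A diet. At 1 day after cyclophosphamide it had 369.5, 312 and 285 CPM on the normal diet and 342, 387 and 271 CPM on the vitamin A diet, and at 3 days 384, 285 and 369 CPM on the normal and 325, 296 and 419 CPM on the enriched diet. Groups overlapped in each of the 9 comparisons of 2 groups. The change at 1 day was log2 0.22, SE 0.16, adjusted p = 0.424 on the normal diet, with a 95% interval of -0.12 to 0.56, and log2 0.13, SE 0.16, adjusted p = 0.619 on the vitamin A diet (-0.21 to 0.47). Keap1, which encodes the adaptor that hands Nrf2 to a ubiquitin ligase, had 77.5, 75.4 and 84.5 CPM in saline mice on the normal diet and 83.0, 77.0 and 76.2 CPM on the enriched diet. At 1 day it had 88.2, 85.8 and 80.0 CPM on the normal and 84.4, 89.3 and 80.9 CPM on the enriched diet, and at 3 days 78.5, 80.4 and 85.6 CPM on the normal and 82.7, 63.4 and 82.1 CPM on the enriched diet. These groups overlapped in all 9 comparisons too. Its change at 1 day was log2 0.10, SE 0.11, adjusted p = 0.617 on the normal diet (-0.13 to 0.32) and log2 0.08, SE 0.11, adjusted p = 0.657 on the vitamin A diet (-0.14 to 0.30).

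Genes for the supply of glutathione rose in part. Slc7a11 encodes the subunit of the exchanger xCT that brings in cystine, the source of cysteine for glutathione. It had 13.5, 8.18 and 13.0 CPM in saline mice on the normal diet against 47.0, 24.8 and 54.7 CPM 1 day after cyclophosphamide. With vitamin A it had 6.999, 5.06 and 8.09 CPM in saline and 27.9, 50.3 and 31.2 CPM in treated mice. All treated mice lay above the saline mice of their diet. Slc7a11 rose 3.65-fold on the normal diet (log2 1.87, SE 0.33, adjusted p = 0.00112) and 5.35-fold on the vitamin A diet (log2 2.42, SE 0.34, adjusted p = 6.37e-05). At 3 days it had 22.1, 18.9 and 19.5 CPM on the normal and 21.1, 7.66 and 15.1 CPM on the vitamin A diet, below every 1-day mouse of the same diet. It fell from 1 to 3 days on the vitamin A diet (log2 -1.33, SE 0.33, adjusted p = 0.0274), a call lost without 1-day replicate 2 (0.126) or 3 (0.0534) or 3-day replicate 2 (0.086).

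Glutamate-cysteine ligase, the rate-limiting step of glutathione synthesis, joins a catalytic subunit (Gclc) to a modifier subunit (Gclm). Gclc had 168, 157 and 177 CPM in saline mice and 185, 153 and 189.9 CPM at 1 day on the normal diet. Mice on the enriched diet had 147, 162 and 177 CPM in saline and 162, 188 and 148 CPM in treated mice. Saline and treated mice overlapped on each diet (log2 0.07, SE 0.16, adjusted p = 0.819 on the normal and log2 0.01, SE 0.16, adjusted p = 0.972 on the vitamin A diet). At 3 days Gclc had 119, 108 and 129.6 CPM on the normal and 148, 83.7 and 134 CPM on the vitamin A diet. On the normal diet these values were below every saline mouse, and Gclc fell against saline (log2 -0.55, SE 0.16, adjusted p = 0.0305), a call lost without 3-day replicate 1 (0.101) or 2 (0.12) or saline replicate 1 (0.0861), 2 (0.0645) or 3 (0.106). Gclm had 80.2, 75.8 and 68.4 CPM in saline mice and 141, 116 and 135 CPM at 1 day on the normal diet. Vitamin A mice had 76.1, 75.9 and 83.1 CPM in saline and 117, 124 and 86.1 CPM in treated mice, and at 3 days 105, 88.7 and 104 CPM on the normal and 92.7, 58.2 and 102 CPM on the enriched diet. Treated mice lay above saline mice on each diet at 1 day. Gclm rose on the normal diet (log2 0.81, SE 0.17, adjusted p = 0.00364), whereas the change on the vitamin A diet did not pass (log2 0.45, SE 0.17, adjusted p = 0.0635; 0.0422 in DESeq2).

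Gss makes glutathione from the dipeptide that the ligase yields. It had 26.8, 29.6 and 28.4 CPM in saline mice and 48.2, 44.8 and 50.9 CPM at 1 day on the normal diet, and 26.2, 24.1 and 29.8 CPM in saline and 47.0, 72.2 and 51.7 CPM in treated mice on the vitamin A diet. No treated mouse overlapped the saline mice of its diet. Gss rose on the normal (log2 0.76, SE 0.16, adjusted p = 0.00513) and on the vitamin A diet (log2 1.07, SE 0.16, adjusted p = 0.000139). At 3 days it had 36.2, 36.7 and 36.0 CPM on the normal and 30.6, 40.8 and 37.2 CPM on the enriched diet, and the fall from 1 day passed on the enriched diet (log2 -0.63, SE 0.16, adjusted p = 0.0336). That call was lost without 1-day replicate 2 (0.166) or 3 (0.0589) or 3-day replicate 1 (0.112). Gsr reduces oxidised glutathione with NADPH. It had 59.9, 62.0 and 66.7 CPM in saline mice and 123, 108 and 108 CPM at 1 day on the normal diet, and 68.5, 71.7 and 74.8 CPM in saline and 138, 181 and 122 CPM in treated mice on the vitamin A diet. Treated mice were the higher ones on each diet, without overlap. Gsr rose on the normal (log2 0.85, SE 0.21, adjusted p = 0.0138) and the vitamin A diet (log2 1.01, SE 0.21, adjusted p = 0.00228), and the normal diet call was lost without treated replicate 1 (0.0511) or saline replicate 1 (0.0577). At 3 days Gsr ranged from 72.9 to 116 CPM on the normal diet and from 57.1 to 123 CPM on the vitamin A diet, with the lowest value in the replicate 2 that stood apart.

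Of the 4 glutathione peroxidases, which reduce peroxides with glutathione, Gpx2 changed most. Gpx2 (chromosome 12, 76839109 to 76842328, minus strand), the peroxidase of epithelia, had 13.2, 11.7 and 10.8 CPM in saline mice and 128, 77.5 and 153 CPM at 1 day on the normal diet. Under vitamin A the values were 16.9, 16.5 and 14.5 CPM in saline and 74.4, 110.3 and 74.0 CPM in treated mice. All treated mice on either diet stood above all saline mice. Gpx2 rose 10.1-fold on the normal (log2 3.33, SE 0.35, adjusted p = 1.1e-05) and 5.29-fold on the vitamin A diet (log2 2.40, SE 0.33, adjusted p = 5.46e-05). At 3 days it had 107, 36.0 and 52.8 CPM on the normal and 53.0, 65.2 and 87.8 CPM on the vitamin A diet. Every 3-day mouse was above every saline mouse, and Gpx2 was higher than in saline on the normal (log2 2.41, SE 0.34, adjusted p = 0.000109) and the enriched diet (log2 2.09, SE 0.33, adjusted p = 0.000475).

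Gpx3 encodes the secreted peroxidase of plasma and connective tissue. It had 129.7, 154 and 124 CPM in saline mice, 102, 166 and 102 CPM at 1 day and 217, 276 and 259 CPM at 3 days on the normal diet. The enriched diet gave 130.1, 133 and 143 CPM in saline mice, 194, 122 and 134 CPM at 1 day and 289, 315 and 178 CPM at 3 days. Saline and 1-day mice overlapped on each diet. The 3-day mice were above both on the normal diet, and on the enriched diet replicate 3 (178 CPM) lay below the highest 1-day mouse. Gpx3 rose from 1 to 3 days on the normal (log2 0.97, SE 0.22, adjusted p = 0.031) and the vitamin A diet (log2 0.83, SE 0.22, adjusted p = 0.0389), and lay above saline on them too (log2 0.83, SE 0.22, adjusted p = 0.0211 and log2 0.94, SE 0.22, adjusted p = 0.0129). Summed fibroblast markers (6 genes) on the normal diet were also highest at 3 days, at 6127 to 6806 CPM in saline, 2042 to 3147 CPM at 1 day and 8360 to 12720 CPM at 3 days. On the vitamin A diet they were 6418 to 7069, 1521 to 3577 and 5945 to 13200 CPM, so saline and 3-day mice overlapped. Endothelial (314.7 to 375 CPM) and macrophage and monocyte marker sums (743.5 to 1072 CPM) were highest at 3 days on the normal diet as well, and overlapped saline on the vitamin A diet. None of these markers was at 0, and their part in the Gpx3 result was not tested. The rise from 1 to 3 days was lost on the normal diet without 1-day replicate 1 (0.2) or 3 (0.184) or 3-day replicate 2 (0.133) or 3 (0.0993), and on the vitamin A diet without 1-day replicate 2 (0.137) or 3 (0.145) or 3-day replicate 1 (0.0855) or 2 (0.13). Against saline it was lost without 3-day replicate 2 (0.0678) or 3 (0.0646) or saline replicate 1 (0.0788) or 3 (0.0977) on the normal diet, and without 3-day replicate 2 (0.0632) or saline replicate 1 (0.0528) or 2 (0.0585) on the vitamin A diet.

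Gpx1, the widely expressed cytosolic peroxidase, rose at 1 day from 265 ± 19.7 to 475 ± 77.4 CPM on the normal diet (log2 0.84, SE 0.19, adjusted p = 0.00754) and from 335 ± 23.2 to 532 ± 70.7 CPM on the vitamin A diet (log2 0.64, SE 0.19, adjusted p = 0.0249). On the vitamin A diet the call was lost without treated replicate 2 (0.103) or 3 (0.0663) or saline replicate 2 (0.0835) or 3 (0.11). It stood above saline at 3 days on the normal diet (log2 0.64, SE 0.19, adjusted p = 0.0404), a call lost without 3-day replicate 1 (0.199) or 3 (0.0765) or saline replicate 1 (0.0996), 2 (0.0841) or 3 (0.158). Gpx4, which repairs lipid peroxides in membranes, passed in no comparison and ranged in log2 from -0.52 to 0.44 over the 9 comparisons of 2 groups.

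**Figure D2:**
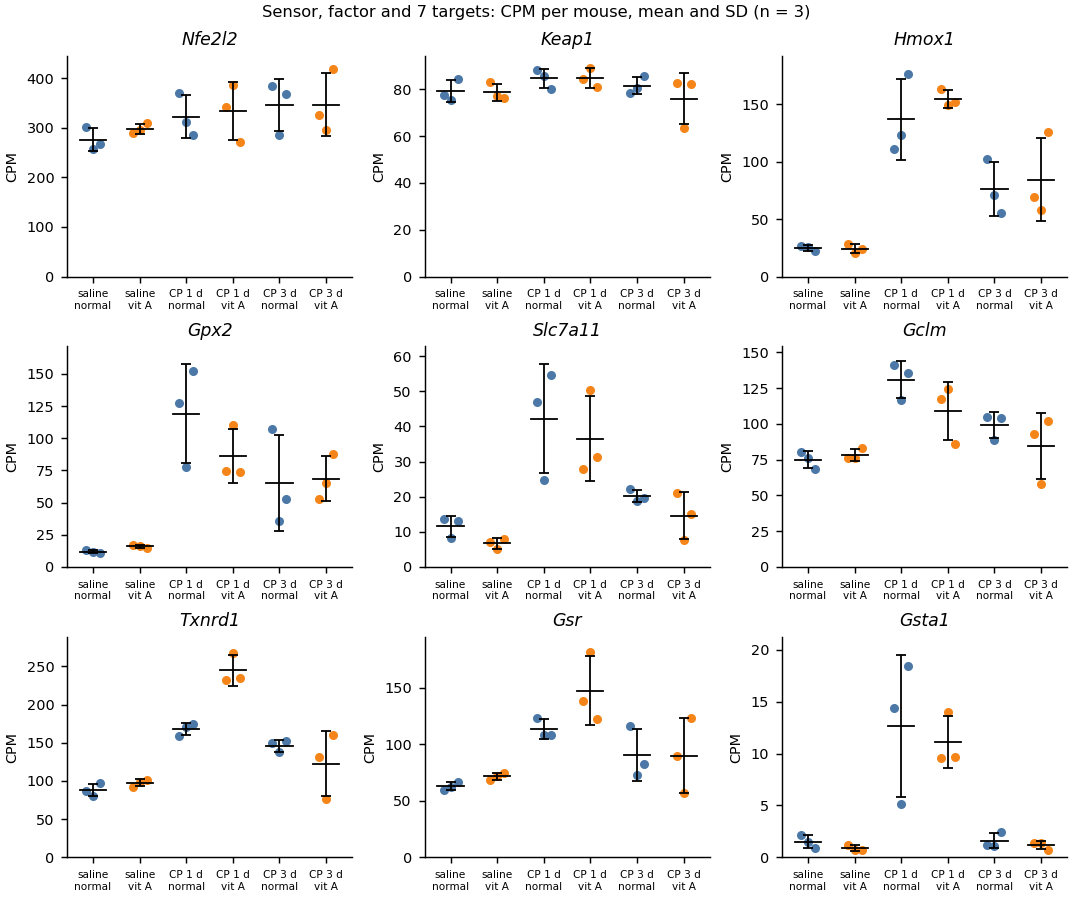
CPM of 9 members in each of the 18 mice by group (blue, normal diet; orange, vitamin A diet), with the mean and the SD of 3 mice. Nfe2l2 and Keap1 overlap across groups, while Hmox1, Gpx2, Slc7a11, Txnrd1 and Gsta1 are higher in all 6 mice at 1 day after cyclophosphamide than in all 6 saline mice.

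The transferases join glutathione to electrophiles. At 1 day 6 of 9 rose and 1 fell on the normal diet, where 7.26% and 4.49% of all tested genes did, and 1 rose and 3 fell on the vitamin A diet (10.2% and 9.05%). Gsta1 (chromosome 9, 78137951 to 78149965, plus strand) had 2.15, 1.43 and 0.88 CPM in saline mice and 14.4, 5.12 and 18.5 CPM at 1 day on the normal diet. For vitamin A mice the values were 1.22, 0.70 and 0.71 CPM in saline and 9.61, 14.0 and 9.70 CPM in treated mice. Treated mice were higher without overlap, from a low base. Gsta1 rose on the normal (log2 3.10, SE 0.48, adjusted p = 0.000337) and the vitamin A diet (log2 3.61, SE 0.50, adjusted p = 4.82e-05). By 3 days it had 1.24, 1.14 and 2.48 CPM on the normal and 1.36, 1.40 and 0.75 CPM on the enriched diet, within or near the saline range. The fall from 1 day passed on both (log2 -3.03, SE 0.47, adjusted p = 0.00222 and log2 -3.24, SE 0.49, adjusted p = 0.00127).

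Gsta2 (chromosome 9, 78238300 to 78254474, minus strand) had 23.5, 22.2 and 23.0 CPM in saline mice, 69.3, 51.5 and 71.7 CPM at 1 day and 23.0, 17.98 and 23.6 CPM at 3 days on the normal diet. Enriched diet values were 17.8, 20.2 and 21.1 CPM in saline mice, 22.5, 35.3 and 26.3 CPM at 1 day and 19.1, 24.3 and 20.1 CPM at 3 days. The 3 mice at 1 day on the normal diet stood above all 15 other libraries. Gsta2 rose on the normal diet (log2 1.49, SE 0.19, adjusted p = 5.41e-05) and fell from 1 to 3 days (log2 -1.63, SE 0.19, adjusted p = 0.000222), and on the vitamin A diet its change at 1 day did not pass (log2 0.49, SE 0.19, adjusted p = 0.0749). Gsta3 (chromosome 1, 21310789 to 21335799, plus strand) had 57.9, 58.8 and 56.4 CPM in saline mice, 138, 110.4 and 124 CPM at 1 day and 77.3, 55.4 and 72.5 CPM at 3 days on the normal diet. In the vitamin A groups it had 80.9, 84.8 and 69.1 CPM in saline mice, 70.2, 59.5 and 28.4 CPM at 1 day and 62.7, 78.8 and 63.6 CPM at 3 days. Again the 1-day mice on the normal diet were the highest of all 18, and the lowest value was replicate 3 of the vitamin A diet at 1 day. Gsta3 rose on the normal diet (log2 1.11, SE 0.23, adjusted p = 0.0041), and its change on the vitamin A diet was -0.60 (adjusted p = 0.074).

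Mgst2, a membrane-bound transferase that can also make leukotriene C4, had 29.2, 30.8 and 34.5 CPM in saline mice, 85.6, 54.7 and 91.9 CPM at 1 day and 45.5, 36.5 and 40.8 CPM at 3 days on the normal diet. With vitamin A it had 29.6, 28.6 and 33.5 CPM in saline mice, 35.8, 35.9 and 18.1 CPM at 1 day and 38.2, 65.8 and 37.1 CPM at 3 days. All 3 treated mice on the normal diet lay above saline, whereas on the enriched diet saline and treated mice overlapped. Mgst2 rose on the normal diet (log2 1.30, SE 0.26, adjusted p = 0.00321), and its change on the vitamin A diet did not pass (log2 -0.06, SE 0.26, adjusted p = 0.907). Gstp1, the pi class enzyme, had 149, 123 and 134 CPM in saline mice, 247, 203 and 243 CPM at 1 day and 139, 104 and 132 CPM at 3 days on the normal diet. Mice on the enriched diet had 182, 145 and 124 CPM in saline mice, 135, 161 and 128 CPM at 1 day and 114, 188 and 120.4 CPM at 3 days. On the normal diet the 1-day mice stood above the others without overlap, and on the enriched diet the groups overlapped. Gstp1 rose at 1 day on the normal diet (log2 0.77, SE 0.20, adjusted p = 0.0196), a call lost without treated replicate 1 (0.0621) or 3 (0.07) or saline replicate 2 (0.0788) or 3 (0.0731). It fell from 1 to 3 days there (log2 -0.94, SE 0.21, adjusted p = 0.0237), lost without 1-day replicate 1 (0.123) or 3 (0.107) or 3-day replicate 2 (0.155) or 3 (0.0751).

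Lower values were seen for 3 transferases, with the abundant Gstm1 among them. Gstm1 had 5687, 5671 and 5545 CPM in saline mice, 5772, 4397 and 4055 CPM at 1 day and 3794, 3368 and 3610 CPM at 3 days on the normal diet. Vitamin A mice had 6118, 6525 and 5815 CPM in saline mice, 3707, 3036 and 1524 CPM at 1 day and 4153, 4453 and 4760 CPM at 3 days. On the enriched diet every 1-day mouse was below every saline mouse, and the lowest was replicate 3. Gstm1 fell at 1 day on the vitamin A diet (log2 -1.19, SE 0.24, adjusted p = 0.00179), while on the normal diet the groups overlapped (log2 -0.25, SE 0.24, adjusted p = 0.556). Its relative Gstm2 had 270.4, 260.2 and 219 CPM in saline mice, 194, 148 and 117 CPM at 1 day and 203, 191 and 187 CPM at 3 days on the normal diet. Enriched diet values were 218, 271 and 258 CPM in saline mice, 139, 83.1 and 74.8 CPM at 1 day and 230.5, 228 and 228 CPM at 3 days. All 1-day mice lay below the saline mice of their diet. Gstm2 fell on the normal (log2 -0.71, SE 0.19, adjusted p = 0.0219) and the vitamin A diet (log2 -1.37, SE 0.19, adjusted p = 6.83e-05), and rose again by 3 days on the vitamin A diet (log2 1.24, SE 0.19, adjusted p = 0.00184). The fall on the normal diet was lost without treated replicate 2 (0.0784) or 3 (0.126) or saline replicate 1 (0.0833) or 2 (0.0722).

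Mgst1, the microsomal enzyme, had 303, 289 and 255 CPM in saline mice, 245, 241 and 217 CPM at 1 day and 269, 212 and 225 CPM at 3 days on the normal diet. Under vitamin A the values were 348, 342 and 344 CPM in saline mice, 209, 163 and 148 CPM at 1 day and 302, 320.2 and 246 CPM at 3 days. The 1-day mice lay below the saline mice on each diet, and on the enriched diet below all 3-day mice as well. Mgst1 fell at 1 day on the vitamin A diet (log2 -1.02, SE 0.15, adjusted p = 7.6e-05) and rose again by 3 days (log2 0.76, SE 0.15, adjusted p = 0.00623), and the change on the normal diet was -0.27 (adjusted p = 0.255). Gsta4, which acts on lipid aldehydes such as hydroxynonenal, rose on the normal diet from 1165 ± 82.3 to 1999 ± 297 CPM (log2 0.78, SE 0.22, adjusted p = 0.025). That call was lost without treated replicate 1 (0.0969) or 3 (0.0643) or saline replicate 1 (0.0596), 2 (0.0692) or 3 (0.107).

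Umbrella cell markers fell beside these transferases. Their 6-gene sums were 7146 to 7651 CPM in saline mice on the normal diet, 6715 to 7441 CPM on the vitamin A diet, 4303 to 5720 CPM at 1 day on the normal diet and 2406 to 3900 CPM at 1 day on the vitamin A diet. Of the 6 markers 2 fell at 1 day on the normal diet (4.49% of all tested genes) and 6 on the vitamin A diet (9.05%). Replicate 3 of the vitamin A diet at 1 day had the lowest marker sum of the 18 libraries (2406 CPM) and the lowest Gstm1 (1524 CPM). Sums over 6 basal cell markers were 1858 to 2038 CPM in saline and 4280 to 5091 CPM at 1 day on the normal diet, and 1308 to 1491 CPM in saline and 4574 to 6333 CPM at 1 day on the vitamin A diet. What these shifts contribute to the transferase results was not tested.

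**Figure D3:**
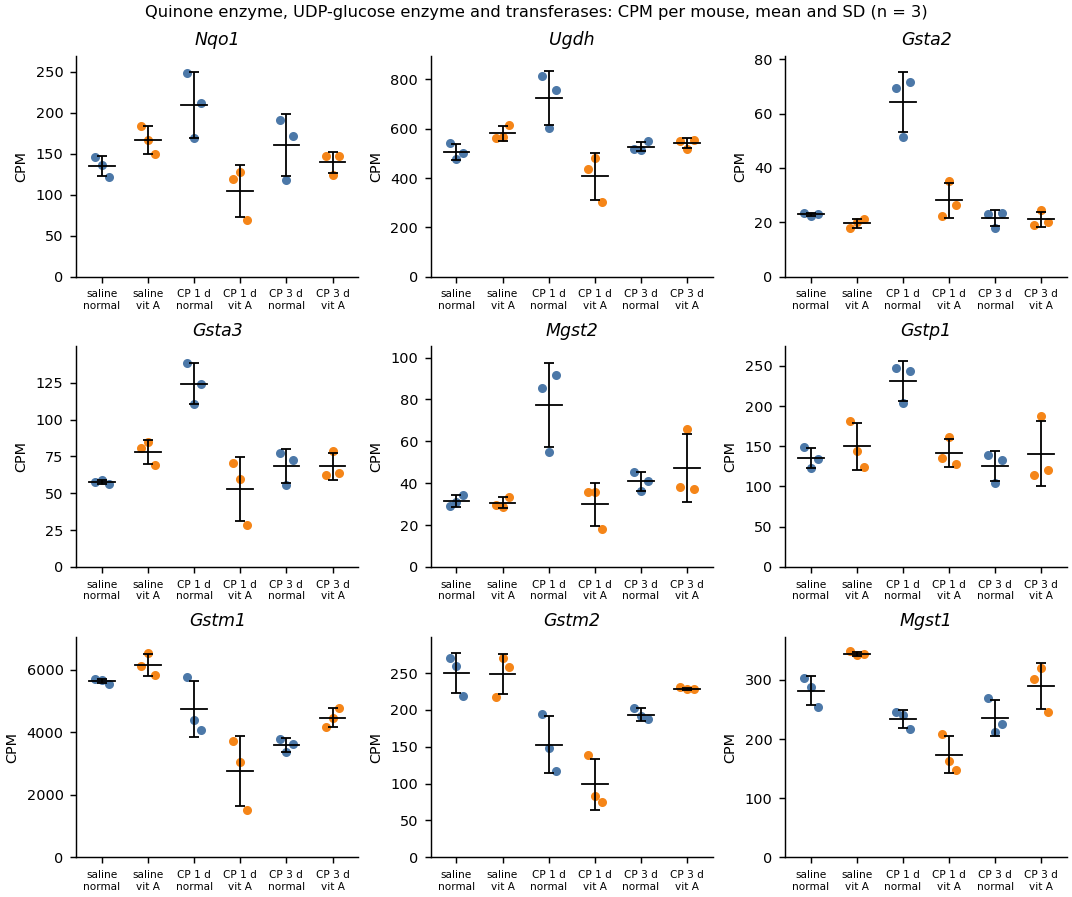
CPM of Nqo1, Ugdh and 7 transferases in each of the 18 mice by group, drawn as in the plot of the sensor, its factor and 7 targets. At 1 day after cyclophosphamide the normal diet mice of Nqo1, Ugdh, Gsta2, Gsta3, Mgst2 and Gstp1 lie above the vitamin A mice without overlap, and by 3 days the diets overlap for each of these 6.

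In the thioredoxin system, a set of thiol reductases parallel to glutathione, 4 of 5 members rose on the normal diet (7.26% of all tested genes) and 3 on the vitamin A diet (10.2%). Txnrd1 encodes the reductase that keeps thioredoxin active. It had 87.2, 80.3 and 96.9 CPM in saline mice, 158, 171 and 174 CPM at 1 day and 149.5, 138 and 152 CPM at 3 days on the normal diet. The enriched diet gave 92.3, 98.9 and 101 CPM in saline mice, 232, 268 and 234 CPM at 1 day and 131, 76.6 and 160.3 CPM at 3 days. At 1 day all treated mice were above all saline mice, and the vitamin A mice above the normal diet mice. Txnrd1 rose on the normal (log2 0.93, SE 0.17, adjusted p = 0.00128) and the vitamin A diet (log2 1.30, SE 0.17, adjusted p = 2.72e-05) and fell from 1 to 3 days on the vitamin A diet (log2 -0.99, SE 0.17, adjusted p = 0.00278). At 3 days it was above saline on the normal diet (log2 0.68, SE 0.17, adjusted p = 0.0144), a call lost without 3-day replicate 1 (0.058) or 3 (0.0535) or saline replicate 1 (0.0539) or 2 (0.0741). The lowest 3-day value, 76.6 CPM, was that of the vitamin A replicate 2 that stood apart.

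Txn1, thioredoxin itself, had 118, 126 and 124 CPM in saline mice and 172, 245 and 273 CPM at 1 day on the normal diet. For vitamin A mice the values were 148, 141 and 134 CPM in saline and 200.1, 302 and 226 CPM in treated mice. Treated mice were above saline mice on each diet. Txn1 rose on the normal (log2 0.90, SE 0.23, adjusted p = 0.0149) and the vitamin A diet (log2 0.76, SE 0.23, adjusted p = 0.0254). The first call was lost without treated replicate 3 (0.0814) or saline replicate 1 (0.0586) or 3 (0.0555), and the other without treated replicate 2 (0.142) or saline replicate 2 (0.0757) or 3 (0.101). Srxn1, which revives over-oxidised peroxiredoxins, had 54.1, 51.2 and 51.6 CPM in saline mice, 69.4, 81.9 and 73.8 CPM at 1 day and 60.5, 58.7 and 59.0 CPM at 3 days on the normal diet. In the vitamin A groups it had 55.6, 54.5 and 53.3 CPM in saline mice, 82.0, 72.0 and 82.9 CPM at 1 day and 59.6, 54.6 and 51.4 CPM at 3 days. Its 1-day mice lay above saline and above 3-day mice on each diet. Srxn1 rose on the normal (log2 0.52, SE 0.10, adjusted p = 0.00237) and the vitamin A diet (log2 0.50, SE 0.10, adjusted p = 0.00163), and its fall by 3 days passed on the enriched diet (log2 -0.50, SE 0.10, adjusted p = 0.00936). Prdx6, a peroxiredoxin that acts on phospholipids, had 143 ± 4.19 CPM in saline mice and rose to 235 ± 17.0 CPM at 1 day on the normal diet (log2 0.72, SE 0.13, adjusted p = 0.00164), and its change on the vitamin A diet did not pass (log2 0.13, SE 0.13, adjusted p = 0.54). Prdx1, the abundant cytosolic peroxiredoxin, passed in no comparison (log2 0.53, SE 0.18, adjusted p = 0.0706 at 1 day on the normal diet).

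Some enzymes remove superoxide and hydrogen peroxide directly. Catalase (Cat), cytosolic superoxide dismutase (Sod1) and the mitochondrial form (Sod2) passed in none of the 9 comparisons of 2 groups. At 1 day on the normal diet the changes were 0.04 for Cat (-0.18 to 0.25), 0.13 for Sod1 (-0.33 to 0.58) and 0.13 for Sod2 (-0.13 to 0.40), with 95% intervals in parentheses. The extracellular dismutase Sod3, which is no member, fell on both diets at 1 day (log2 -2.17, adjusted p = 0.000107 and log2 -1.36, adjusted p = 0.00254).

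Among the quinone, carbonyl and epoxide enzymes 1 of 4 rose on the normal diet (7.26% of all tested genes), while 3 of 4 fell on the vitamin A diet (9.05%). Nqo1 (chromosome 8, 108114856 to 108139012, minus strand) reduces quinones in a single step without radicals and is the usual reporter of Nrf2 activity. It had 146, 136 and 122 CPM in saline mice, 249, 169 and 211 CPM at 1 day and 191, 118 and 171 CPM at 3 days on the normal diet. With vitamin A it had 184, 166 and 149.8 CPM in saline mice, 118, 128 and 68.7 CPM at 1 day and 146, 124 and 147 CPM at 3 days. Treated mice at 1 day were all above saline on the normal diet and all below it on the enriched diet. On the normal diet the change did not pass (log2 0.64, SE 0.21, adjusted p = 0.0573; 0.0322 in DESeq2 and 0.00885 in the fit of these 2 groups alone), and on the vitamin A diet Nqo1 fell (log2 -0.70, SE 0.21, adjusted p = 0.0259). That fall was lost without treated replicate 3 (0.124) or saline replicate 1 (0.0986) or 2 (0.0638).

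Ugdh (chromosome 5, 65570550 to 65593185, minus strand) makes UDP-glucuronate, the donor for glucuronide conjugation and for hyaluronan. It had 542, 476 and 503 CPM in saline mice, 813, 604 and 758 CPM at 1 day and 517, 515 and 548 CPM at 3 days on the normal diet. Mice on the enriched diet had 563, 566 and 616 CPM in saline mice, 436, 482 and 301 CPM at 1 day and 551, 518 and 553 CPM at 3 days. Like Nqo1, its 1-day mice lay above saline on the normal and below saline on the vitamin A diet, without overlap. Ugdh rose on the normal diet (log2 0.52, SE 0.16, adjusted p = 0.0398) and fell on the vitamin A diet (log2 -0.54, SE 0.16, adjusted p = 0.0204). The rise was lost without treated replicate 1 (0.147) or 3 (0.135) or saline replicate 1 (0.0748), 2 (0.135) or 3 (0.127), and the fall without treated replicate 3 (0.106) or saline replicate 1 (0.0501), 2 (0.0503) or 3 (0.0537). With a replicate block the rise had an adjusted p of 0.0569, and in the fit of its 2 groups alone the fall had 0.0579. Cbr1, a carbonyl reductase, had 66.3, 73.0 and 54.8 CPM in saline mice and 69.9, 66.6 and 66.2 CPM at 1 day on the normal diet. Vitamin A mice had 67.2, 67.5 and 75.6 CPM in saline and 57.5, 45.3 and 42.2 CPM in treated mice, with every treated mouse below saline. Cbr1 fell there (log2 -0.57, SE 0.14, adjusted p = 0.00844) and overlapped on the normal diet (log2 0.06, SE 0.14, adjusted p = 0.838). Ephx1, the microsomal epoxide hydrolase, passed in no comparison.

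Among the enzymes of NADPH supply and the pentose phosphate pathway, Pgd and Taldo1 rose on both diets. Taldo1, transaldolase, had 227 ± 15.6 CPM in saline and 430.2 ± 39.3 CPM in treated mice on the normal diet (log2 0.92, SE 0.17, adjusted p = 0.00147), and 246 ± 12.8 and 409 ± 66.3 CPM on the vitamin A diet (log2 0.71, SE 0.17, adjusted p = 0.00574). Pgd, 6-phosphogluconate dehydrogenase, rose by 0.79 (adjusted p = 0.00131) on the normal and by 0.54 (adjusted p = 0.0121) on the vitamin A diet, the latter lost without treated replicate 2 (0.0897) or saline replicate 3 (0.0649). G6pdx, Tkt and Me1 passed in no comparison, at 0.29, 0.46 and 0.36 at 1 day on the normal diet and -0.07, -0.01 and 0.22 on the vitamin A diet.

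Hmox1 (chromosome 8, 75820246 to 75827221, plus strand) encodes the inducible enzyme that breaks down haem to biliverdin, iron and carbon monoxide. It had 27.0, 25.8 and 21.9 CPM in saline mice, 111, 123 and 177 CPM at 1 day and 102, 71.3 and 55.6 CPM at 3 days on the normal diet. Under vitamin A the values were 28.1, 20.6 and 23.9 CPM in saline mice, 164, 149 and 152 CPM at 1 day and 69.6, 57.9 and 126 CPM at 3 days. All 12 cyclophosphamide mice lay above all 6 saline mice. Hmox1 rose 5.49-fold on the normal (log2 2.46, SE 0.26, adjusted p = 1.27e-05) and 6.25-fold on the vitamin A diet (log2 2.64, SE 0.27, adjusted p = 2.43e-06). At 3 days it was still above saline on both (log2 1.56, SE 0.26, adjusted p = 0.000565 and log2 1.78, SE 0.26, adjusted p = 0.000201), and its decline from 1 day did not pass (log2 -0.90, SE 0.25, adjusted p = 0.0916 and log2 -0.86, SE 0.25, adjusted p = 0.0588). Summed red blood cell markers (6 genes) were 75.7 to 247 CPM in saline and 0.50 to 1.44 CPM at 3 days, where 3 of the 6 were at 0, with sums of 23.9 to 117 CPM at 1 day. Macrophage and monocyte marker sums (7 genes) on the normal diet were 404 to 462 CPM in saline, 468.6 to 535 CPM at 1 day and 743.5 to 1072 CPM at 3 days. Vitamin A mice had 407 to 728.5 CPM in saline, 274 to 463 CPM at 1 day, where Hmox1 was highest, and 603 to 1018 CPM at 3 days. Their part in the Hmox1 level was not tested. Fth1, the ferritin heavy chain that stores iron, rose on the normal diet (log2 0.78, SE 0.23, adjusted p = 0.0336), a call lost without treated replicate 1 (0.0605), 2 (0.063) or 3 (0.123) or saline replicate 1 (0.0898), 2 (0.0849) or 3 (0.114). Ftl1 did not pass (log2 0.64, SE 0.22, adjusted p = 0.0721).

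Osgin1, an oxidant-induced growth inhibitor gene, had 137, 122 and 134 CPM in saline mice and 126, 114 and 102 CPM at 1 day on the normal diet. The enriched diet gave 131, 134 and 141 CPM in saline and 91.6, 100.5 and 71.1 CPM in treated mice, with all treated mice below saline. Osgin1 fell on the vitamin A diet (log2 -0.65, SE 0.13, adjusted p = 0.00118), against -0.20 on the normal diet (adjusted p = 0.341). Abcc1, which exports glutathione conjugates, passed in no comparison.

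The next comparison asked what moved between 1 and 3 days. On the normal diet 4 of 42 members passed, where 1.44% of all genes did. Gpx3 was higher (1.22% of all genes) and Gsta1, Gsta2 and Gstp1 lower (0.217%). The members' median was -0.45, against -0.01 over all genes, and 23 members had all 3-day mice below all 1-day mice, where 7.88% of all genes did. DESeq2 called 17 members there and a fit of these 2 groups alone 18, with 646 and 708 of all genes called in those fits against 278 here. On the vitamin A diet 8 passed, where 4.24% of all genes did, with Gpx3, Gstm2 and Mgst1 higher (2.55%) and Slc7a11, Gss, Gsta1, Txnrd1 and Srxn1 lower (1.69%). The median was -0.10 against 0.01, and 5 members lay higher and 9 lower without overlap, where 7.27% and 8.36% of all genes did. In a fit of these 2 groups alone 1 member passed, and 17 of all genes against 819 here.

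**Figure D4:**
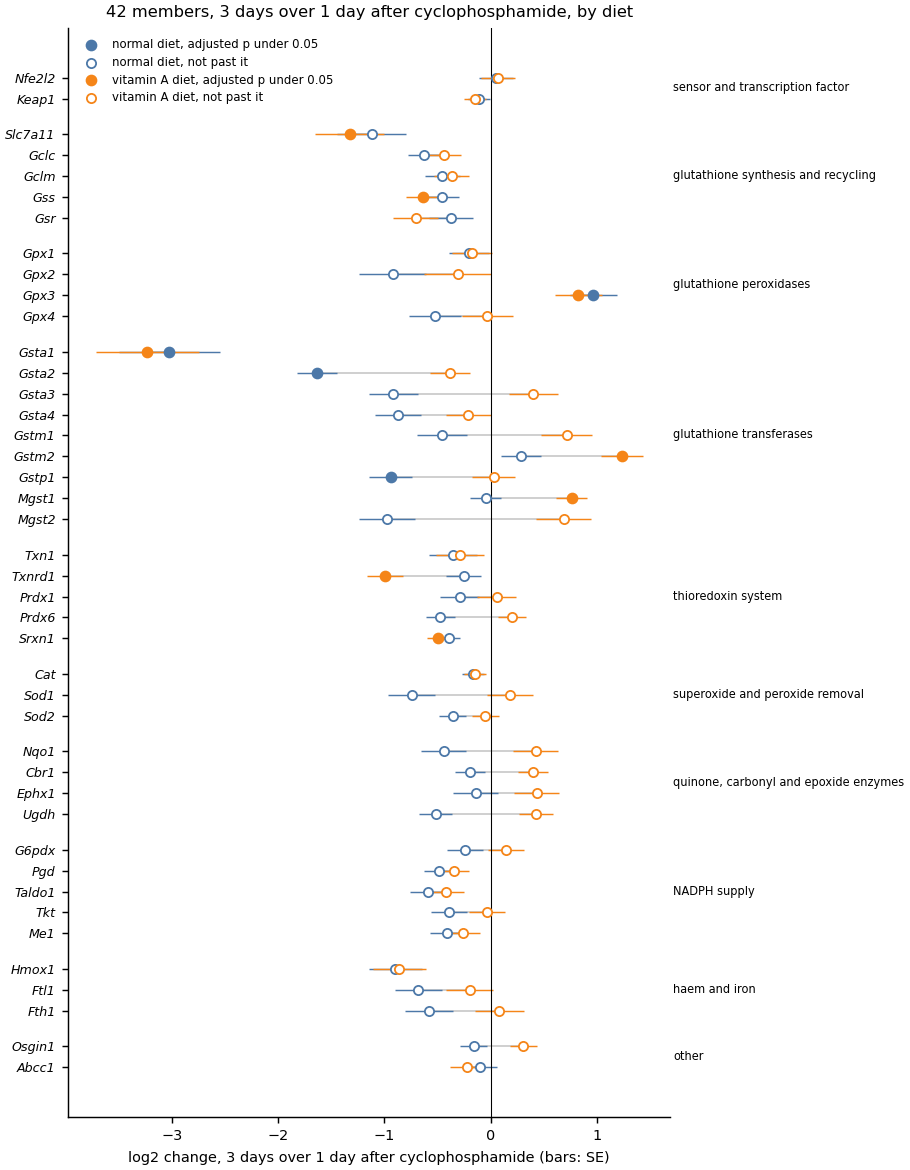
Log2 change of the 42 members from 1 to 3 days after cyclophosphamide, with the standard error, on the normal diet (blue) and the vitamin A diet (orange); filled points have an adjusted p under 0.05. Gsta1 lies at -3.03 and -3.24 and Gpx3 at 0.97 and 0.83. Gstm1, Mgst2, Gsta3, Nqo1 and Ugdh lie below 0 on the normal diet and above 0 on the vitamin A diet. None of these passed on either diet, and the interaction of diet with day passed for no member in edgeR.

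Against the 1-day saline mice, 6 members differed at 3 days on the normal diet, where 10% of all genes did. Gpx1, Gpx2, Gpx3, Txnrd1 and Hmox1 were higher (6.74% of all genes) and Gclc lower (3.3%). Vitamin A mice differed in 3 members, where 5.98% of all genes did, all of them higher (4.32%): Gpx2, Gpx3 and Hmox1. None was lower (1.67% of all genes). Without overlap 18 members lay above saline (23.7% of all genes) and 6 below (14.3%) on the normal diet, against 9 above (11.7%) and 6 below (8.82%) on the enriched diet. Gpx2 and Hmox1 passed on each diet whichever 1 of the 6 libraries was left out. Medians were 0.10 on the normal and 0.09 on the vitamin A diet, against 0.00 and 0.01 over all genes.

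The diet comparison asked how extra vitamin A changes these genes at rest and after injury. In saline mice 0 of 42 members passed in edgeR and 0 in DESeq2, where 0.0104% of all genes passed in edgeR. Without overlap 13 members were higher on vitamin A (7.2% of all genes) and 4 lower (8.05%). At an unadjusted p under 0.05 there was 1 member, Slc7a11 (3.77% of all genes, 2.1% higher and 1.68% lower), with 6.71 ± 1.53 CPM on the vitamin A and 11.6 ± 2.95 CPM on the normal diet (log2 -0.77, SE 0.33, adjusted p = 1). Nqo1 in saline mice was at 0.32 (-0.12 to 0.77) and Hmox1 at -0.02 (-0.56 to 0.51), with 95% intervals. The authors' deposited table for saline mice lists Gsta3 (0.46, 0.0156) and Gpx1 (0.36, 0.0463) as higher on vitamin A, given as log2 ratio and adjusted p. It has 231 features with an adjusted p under 0.05.

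At 1 day after cyclophosphamide 5 members were lower on the vitamin A diet and none higher, where 0.466% of all genes passed, 0.228% lower and 0.238% higher. The members' median was -0.23 against -0.01 over all genes. In 14 members every vitamin A mouse lay below every normal diet mouse (7.89% of all genes) and in 1, Txnrd1, above (7.85%). The 5 were Mgst2 (2.61-fold lower, log2 -1.39, SE 0.26, adjusted p = 0.0249), Gsta3 (2.38-fold, log2 -1.25, SE 0.23, adjusted p = 0.0244), Gsta2 (2.302-fold, log2 -1.20, SE 0.19, adjusted p = 0.0137), Nqo1 (2.01-fold, log2 -1.01, SE 0.21, adjusted p = 0.0442) and Ugdh (1.80-fold, log2 -0.85, SE 0.16, adjusted p = 0.0244). In all 5 the normal and vitamin A mice were apart without overlap, and for Gsta3, Mgst2, Nqo1 and Ugdh replicate 3 of the vitamin A diet was the lowest. Txnrd1 had the highest log2 difference at 0.53 and did not pass (adjusted p = 0.177). Of other members that rose on both diets, Hmox1 was at 0.16 (-0.36 to 0.69), Gsta1 was at -0.20 (-1.11 to 0.71) and Slc7a11 was at -0.22 (-0.89 to 0.45), intervals that still allow sizeable differences.

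None of these 5 calls held in every fit that left out 1 library, though each kept its direction. Such fits also changed the number of all genes called, which was 90 with all libraries. It was 0, 75 and 20 without normally fed replicates 1, 2 and 3, and 305, 61 and 4 without vitamin A-fed replicates 1, 2 and 3. Gsta2 was lost without normally fed replicate 1 (0.105) or vitamin A-fed replicate 3 (0.0554). Gsta3 did not pass without normally fed replicate 1 (0.12) or 3 (0.0721) or vitamin A-fed replicate 3 (0.0554). Mgst2 was lost without normally fed replicate 1 (0.128) or 3 (0.102) or vitamin A-fed replicate 3 (0.109). Nqo1 failed to pass without normally fed replicate 1 (0.223) or 3 (0.109) or vitamin A-fed replicate 3 (0.162). Ugdh was lost without normally fed replicate 1 (0.141) or 3 (0.0908) or vitamin A-fed replicate 3 (0.095). In a fit of the 2 groups alone no member and 2 of all genes passed, with adjusted p of 0.139 to 0.212 for the 5. DESeq2 called 8 members and 483 of all genes, against 90 of all genes in edgeR. The authors' deposited table gives 10 members an adjusted p under 0.05, of 377 features it has under that value, with 9 lower on vitamin A: Gsta2 (-1.21, 1.4e-05), Mgst2 (-1.39, 1.98e-05), Gsta3 (-1.26, 7.44e-05), Nqo1 (-1.02, 0.000495), Ugdh (-0.85, 0.000604), Gstp1 (-0.72, 0.000817), Prdx6 (-0.50, 0.0232), Gstm1 (-0.81, 0.0309) and G6pdx (-0.57, 0.0358). The same authors' deposited table has Txnrd1 higher (0.53, 0.0106).

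**Figure D5:**
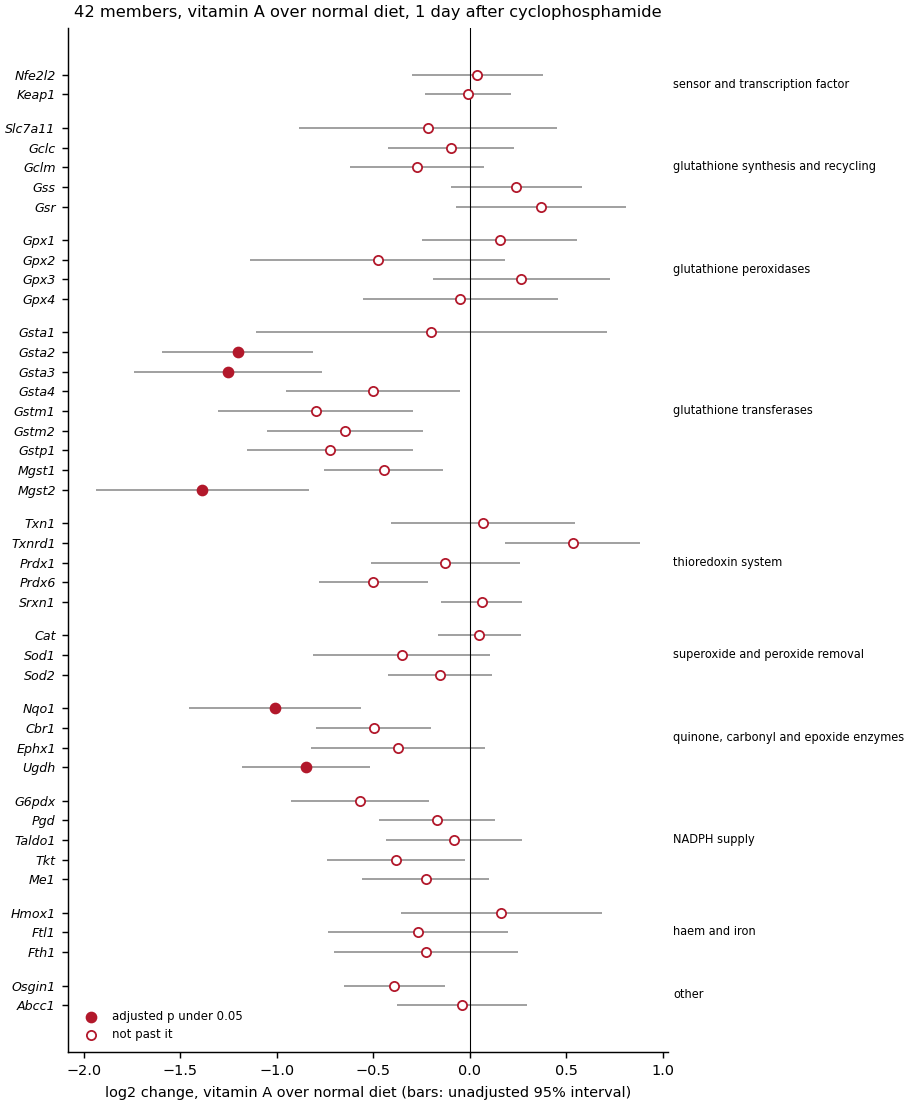
Log2 difference of the vitamin A over the normal diet at 1 day after cyclophosphamide for the 42 members, with unadjusted 95% intervals; filled points have an adjusted p under 0.05. Mgst2, Gsta3, Gsta2, Nqo1 and Ugdh lie at -1.39 to -0.85, and Txnrd1 lies above 0 without passing the threshold.

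Other cell type markers moved beside this diet difference. The umbrella cell sums of 4303 to 5720 CPM on the normal diet and 2406 to 3900 CPM on the vitamin A diet at 1 day do not overlap, though 0 of the 6 markers passed on diet (median log2 -0.58). Adipocyte marker sums (6 genes, none at 0) were 302 to 440.3 CPM on the normal diet and 489, 761 and 1455 CPM on the vitamin A diet, the last in replicate 3. Macrophage and monocyte marker sums (7 genes, none at 0) were 468.6 to 535 CPM on the normal diet and 274 to 463 CPM on the vitamin A diet, apart without overlap. These 3 of the 14 lists separated the diets, and their part in the 5 calls was not tested. Without replicate 3 the log2 differences of the 5 were -1.13 for Mgst2, -0.96 for Gsta3, -1.16 for Gsta2, -0.78 for Nqo1 and -0.67 for Ugdh.

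At 3 days the diet separated no member in edgeR or in DESeq2, where 0.00518% of all genes passed in edgeR, and 2 members, Sod1 and Mgst1, had an unadjusted p under 0.05 (3.76% of all genes). Without overlap 2 members were higher on vitamin A (1.98% of all genes) and 0 lower (5.06%). Sod1 had 353 ± 151 CPM on the vitamin A and 251 ± 12.5 CPM on the normal diet (log2 0.57, SE 0.22, adjusted p = 0.994), with 527 CPM in the vitamin A replicate 2 that stood apart and 264 and 268 CPM in the others. Mgst1 had 289.5 ± 38.4 against 235 ± 30.1 CPM (log2 0.36, SE 0.15, adjusted p = 0.994). Nqo1 was at -0.14 (-0.58 to 0.30) and Ugdh at 0.10 (-0.23 to 0.43).

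Whether the response to cyclophosphamide differed between diets was tested as an interaction. In edgeR 0 of 42 members and 0% of all genes passed, with 12 members at an unadjusted p under 0.05 (7.79% of all genes), all 12 negative (4.09% of all genes, against 3.7% positive). Gsta3 had the lowest p (interaction log2 -1.71, SE 0.33, adjusted p = 0.0991), followed by Ugdh (log2 -1.06, SE 0.22, adjusted p = 0.117) and Nqo1 (log2 -1.33, SE 0.30, adjusted p = 0.147). Gsta2 (log2 -0.9979, adjusted p = 0.245) and Mgst2 (log2 -1.36, adjusted p = 0.28) were further from the threshold. DESeq2 called 3 members and 116 of all genes, with Gsta3 (adjusted p = 0.000901), Ugdh (0.0015) and Nqo1 (0.00948). For Hmox1 the interaction was 0.19 (-0.56 to 0.93). The interaction of diet with the day after injection passed for 0 members and 0% of genes in edgeR, with 15 members at an unadjusted p under 0.05 (8.96% of all genes), 14 of them positive (4.74%) and 1 negative (4.22%). Gsta2 (log2 1.25, SE 0.26, adjusted p = 0.19) and Mgst2 (log2 1.67, SE 0.37, adjusted p = 0.262) had the lowest p. In DESeq2 6 members and 78 of all genes passed, the members being Gsta2 (0.0148), Gsta3 (0.0426), Gstm1 (0.0488), Mgst1 (0.0488), Mgst2 (0.015) and Ugdh (0.015).

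Promoters are shown for 4 members picked because a window holds the searched letters. At 1 day Gclm rose on the normal diet and Txnrd1 on both. Gsta3 and Ugdh rose on the normal diet and were lower on the vitamin A than on the normal diet. The windows of Gpx2, Slc7a11, Gsta1, Nqo1, Gsta2 and Mgst2 do not hold the searched letters, and Hmox1 had no window. Each sequence is the 250 bases before a RefSeq start on the gene's strand, from 5′ to 3′, in GRCm38.p6, a build other than that of the count table. Capitals mark TGACNNNGC, the core of the antioxidant response element, on either strand. Txnrd1 has 3 RefSeq starts with a window, of which the 1 with the core is printed and the other 2 hold none. The windows are chr3:122245307-122245556, plus strand for Gclm, chr10:82858956-82859205, plus strand for Txnrd1, chr1:21240335-21240584, plus strand for Gsta3 and chr5:65435843-65436092, minus strand for Ugdh.
Gclm: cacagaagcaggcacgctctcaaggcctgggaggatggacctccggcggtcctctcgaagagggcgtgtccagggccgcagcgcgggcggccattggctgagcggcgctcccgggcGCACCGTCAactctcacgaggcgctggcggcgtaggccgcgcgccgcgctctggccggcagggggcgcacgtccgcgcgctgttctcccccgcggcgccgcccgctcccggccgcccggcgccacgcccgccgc
Txnrd1: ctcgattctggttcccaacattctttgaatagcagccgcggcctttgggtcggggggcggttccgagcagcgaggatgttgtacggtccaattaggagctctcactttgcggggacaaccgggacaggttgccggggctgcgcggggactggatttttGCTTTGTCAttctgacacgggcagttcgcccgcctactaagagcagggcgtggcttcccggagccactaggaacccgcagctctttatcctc
Gsta3: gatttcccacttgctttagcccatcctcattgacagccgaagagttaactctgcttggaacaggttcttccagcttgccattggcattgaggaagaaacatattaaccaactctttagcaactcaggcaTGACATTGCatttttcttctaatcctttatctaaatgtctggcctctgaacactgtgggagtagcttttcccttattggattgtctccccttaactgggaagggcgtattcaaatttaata
Ugdh: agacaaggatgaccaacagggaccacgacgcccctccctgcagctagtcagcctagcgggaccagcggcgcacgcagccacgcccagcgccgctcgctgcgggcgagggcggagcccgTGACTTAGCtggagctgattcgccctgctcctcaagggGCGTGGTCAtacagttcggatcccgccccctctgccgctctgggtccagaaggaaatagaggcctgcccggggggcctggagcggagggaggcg
The core lies 134 bases before the start of Gclm and 92 before the printed start of Txnrd1, both on the opposite strand, and 121 bases before that of Gsta3 on the gene's strand. Ugdh has it 132 bases before the start on the gene's strand and 94 before it on the opposite strand. Of the 42 members 36 had a window in the RefSeq table, and 9 of the 36 (25%) held the core in at least 1 window against 11.5% of 27025 genes. By window the core was in 9 of 46 of members (19.6%) and in 10.2% of 32851 of all genes. Besides these 4 they were Nfe2l2, Prdx1, Mgst1, Sod1 and G6pdx, of which only Mgst1 passed in any comparison. In Prdx1 the core holds TGACTCA, the letters of an AP-1 site, which 5.16% of all genes have in the same window. Elements further from the start were not searched, and a match describes letters, not binding.

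The other genes of the pathway, 88 listed genes beside the members of which 85 were tested, included strongly changed enzymes. At 1 day on the normal diet 15 of 85 rose and 1 fell, where 7.26% and 4.49% of all tested genes did. Akr1b8, an aldo-keto reductase, went from 105 ± 4.97 to 758 ± 168 CPM (log2 2.85, SE 0.29, adjusted p = 9.69e-06). Aldh3a1, an aldehyde dehydrogenase of epithelia (log2 1.75, adjusted p = 0.00178), and the carbonyl reductase Cbr2 (log2 1.71, adjusted p = 2.87e-05) rose too, and the extracellular dismutase Sod3 fell, as given above. With vitamin A 14 rose and 7 fell, where 10.2% and 9.05% of all tested genes did, so the share that fell was near that of all genes. Akr1b8 (log2 2.89, adjusted p = 2.71e-06), the glutathione-cleaving Ggt1 (log2 2.09, adjusted p = 0.0282) and Gstp2 (log2 2.06, adjusted p = 0.0111) had the highest log2 changes among those that rose. Mean levels in saline and treated mice were 123 and 920 CPM for Akr1b8, but only 0.54 and 2.32 CPM for Ggt1 and 1.16 and 4.99 CPM for Gstp2. Ugt1a6a, a glucuronosyltransferase (log2 -1.63, adjusted p = 0.0062), Sod3 (log2 -1.36, adjusted p = 0.00254) and the retinol-oxidising dehydrogenase Adh7 (log2 -1.26, adjusted p = 0.00658) fell. Ggt1 was lost without treated replicate 2 (0.0912) or saline replicate 1 (0.0966), 2 (0.0995) or 3 (0.0563), and Gstp2 without treated replicate 1 (0.197). Without that library the log2 change of Gstp2 was 0.83, and that of Ugt1a6a was -2.34.

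From 1 to 3 days 2 of these genes rose and 2 fell on the normal diet, and 4 rose and 2 fell on the vitamin A diet. Of all tested genes 1.22% rose and 0.217% fell on the normal diet, and 2.55% and 1.69% on the vitamin A diet. DESeq2 called 11 and 18 of the 85, and 646 and 1663 of all genes. On the normal diet Sod3 (log2 1.67, adjusted p = 0.00553) and the peroxidase Gpx7 (log2 1.43, adjusted p = 0.0214) rose, while Akr1b8 (log2 -1.42, adjusted p = 0.0121) and Idh1, an NADPH source (log2 -0.82, adjusted p = 0.0302), fell. Sod3 was lost without 1-day replicate 1 (0.0545), Gpx7 without 1-day replicate 1 (0.155) or 3 (0.0896) or 3-day replicate 1 (0.0618), 2 (0.0597) or 3 (0.0741), Akr1b8 without 1-day replicate 1 (0.0703) or 3 (0.0638) or 3-day replicate 2 (0.0881) or 3 (0.0741) and Idh1 without 1-day replicate 1 (0.223) or 3 (0.0942) or 3-day replicate 1 (0.0501), 2 (0.179) or 3 (0.102). On the vitamin A diet Gpx7 (log2 1.48, adjusted p = 0.0105), the iron exporter Slc40a1 (log2 0.92, adjusted p = 0.00726) and the drug exporter Abcb1a (log2 0.87, adjusted p = 0.0455) rose. Akr1b8 (log2 -1.76, adjusted p = 0.00211) and the small Maf protein Maff, a partner of Nrf2 (log2 -1.33, adjusted p = 0.0214), fell. Without replicate 2 of the 3-day vitamin A mice, which stood apart, Gpx7 was at 0.88 (adjusted p = 0.042). Abcb1a was lost without 1-day replicate 2 (0.131) or 3 (0.139) or 3-day replicate 1 (0.209), and Maff without 1-day replicate 3 (0.149) or 3-day replicate 1 (0.074) or 2 (0.0626).

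Against saline at 3 days 11 were higher and 4 lower on the normal diet, and 8 higher and 0 lower on the vitamin A diet. Of all tested genes 6.74% were higher and 3.3% lower on the normal diet, and 4.32% and 1.67% on the vitamin A diet. Akr1b8 (log2 1.43, adjusted p = 0.00256), the exporter Abcb1b (log2 1.21, adjusted p = 0.00254) and Aldh3a1 (log2 1.2007, adjusted p = 0.0239) were highest on the normal diet. Me3 (log2 -1.24, adjusted p = 0.0105), Txnrd3 (log2 -0.72, adjusted p = 0.0387) and the autophagy adaptor Sqstm1 (log2 -0.57, adjusted p = 0.026) were lowest. Aldh3a1 was lost without 3-day replicate 1 (0.0757) or 3 (0.0869) or saline replicate 1 (0.0591), 2 (0.0823) or 3 (0.0951), Me3 without 3-day replicate 1 (0.0721), Txnrd3 without 3-day replicate 1 (0.202) or 3 (0.0833) or saline replicate 1 (0.0547), 2 (0.0998) or 3 (0.166) and Sqstm1 without 3-day replicate 1 (0.0898) or 3 (0.116) or saline replicate 1 (0.0591), 2 (0.0964) or 3 (0.0719). On the vitamin A diet Gpx7 (log2 1.27, adjusted p = 0.0154), Akr1b8 (log2 1.13, adjusted p = 0.0179) and the omega class transferase Gsto1 (log2 1.13, adjusted p = 0.000478) had the highest changes. Without replicate 2 at 3 days Gpx7 was at 0.66. Gpx7 was lost without 3-day replicate 2 (0.0951) or saline replicate 1 (0.0505), 2 (0.0666) or 3 (0.0677), and Akr1b8 without 3-day replicate 2 (0.0587) or 3 (0.0584) or saline replicate 1 (0.0661) or 2 (0.102).

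At 1 day after cyclophosphamide 3 of the 85 were lower on the vitamin A diet and 0 higher, where 0.228% and 0.238% of all tested genes were. Aldh3a1 had 466, 353 and 385 CPM on the normal and 199, 115 and 43.1 CPM on the vitamin A diet (log2 -1.78, adjusted p = 0.0244). Cbr2 (log2 -1.25, adjusted p = 0.0137) and Adh7 (log2 -1.44, adjusted p = 0.0457) were lower as well. Aldh3a1 was lost without normally fed replicate 1 (0.11) or 3 (0.0599) or vitamin A-fed replicate 2 (0.0631), Cbr2 without normally fed replicate 1 (0.105) or vitamin A-fed replicate 3 (0.0604) and Adh7 without normally fed replicate 1 (0.222), 2 (0.0568) or 3 (0.0947) or vitamin A-fed replicate 2 (0.0932) or 3 (0.167). DESeq2 called 10 of the 85 there, and 483 of all genes. In saline mice and at 3 days 0 of the 85 passed on diet in edgeR and 0 in DESeq2, with 2 at an unadjusted p under 0.05 in edgeR each (3.77% and 3.76% of all genes). The interactions of diet with cyclophosphamide and with the day passed for 0 of the 85 in edgeR, with 14 and 19 at an unadjusted p under 0.05 (7.79% and 8.96% of all genes), and for 4 and 2 in DESeq2 (116 and 78 of all genes).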

How the data were processed

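Gene counts are raw whole numbers as deposited by the authors, and FPKM values (fragments scaled by gene length and depth) are also the authors' own. The submitters' processing notes name the build GRCm39 and, without their roles, the tools DESeq2 1.20.0, HISAT2 2.0.5 and featureCounts 1.5.0-p3. In the authors' deposited diet comparisons, log2 ratios and p-values are given as listed. Rows without a gene name (0.474% to 0.81% of counts) were left out. Counts were fitted in edgeR 4.0.16 (R 4.3.3, limma 3.58.1) over all 18 libraries, with TMM scaling, the default low count filter, a robust quasi-likelihood test, 12 residual degrees of freedom and Benjamini-Hochberg adjustment over 19323 genes at 0.05. The fit was tested on simulated data. DESeq2 1.42.0, other scaling, no filter, a replicate block, the groups compared alone and leaving out each library were alternatives. Members and lists were chosen with earlier results of these data known. Values per mouse are given for 25 members, the other 17 by mean, range or change. Of the 25, Nfe2l2, Keap1, Nqo1, Hmox1, Gclc and Gclm were fixed by name. The rest were taken for having the largest changes past the threshold at 1 day against saline, from 1 to 3 days, or between diets at 1 day. Of the other pathway genes, up to 3 called in each direction are named. Nothing says whether replicates are separate experiments. The main p-values therefore weigh group differences against the spread between mice within groups, estimated over all 6 groups together, and not against that between experiments. Promoters are from RefSeq (GRCm38.p6).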

Additional observations from a re-analysis of the deposited data

How the results depend on the processing

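Of the 67 member results past the threshold, none changed direction under the alternatives run: of 737 recomputed values 623 kept their side of the threshold and 114 lost it. The number of members called from 1 to 3 days on the normal diet was 4, and became 17 in DESeq2 and 18 in a fit of the groups compared alone. On the vitamin A diet it was 8, and 1 in the groups alone. Against saline at 3 days on the normal diet it was 6, and 13 in the groups alone. For the diet at 1 day it was 5, and 8 in DESeq2 and 0 in the groups alone. The interaction of diet with cyclophosphamide had 0, and 1 with no filter and 3 in DESeq2, and that of diet with time 0, and 1 with no filter and 6 in DESeq2. The causes were not tested. Leaving out 1 library gave 16 to 21 calls (22 with all) and 15 to 22 (19) at 1 day against saline on the normal and the vitamin A diet, 2 to 7 (4) and 5 to 10 (8) from 1 to 3 days, and 2 to 4 (6) and 2 to 6 (3) at 3 days against saline. For the diet it gave 0 to 0 (0) in saline, 0 to 8 (5) at 1 day and 0 to 0 (0) at 3 days, and 0 to 1 (0) for each interaction. With the replicate number as a block, 21 members were called at 1 day on the normal diet, where Ugdh was lost. The block ended no other member call. Of 45 same-numbered pairs 3 had a correlation of deviations over 0.1 (-0.12 to 0.20), and 5 of 18 libraries correlated best with their own number. Deviations from means of 3 mice cannot show whether the numbers pair the mice. Gsta1 and Slc7a11 had the lowest levels, where counting error is widest.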
